A study of Mus musculus with 25 samples.

Results

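The genes described here are the 10 that encode the main enzymes of phosphatidylcholine and phosphatidylserine synthesis in the mouse: *Chka*, *Chkb*, *Pcyt1a*, *Chpt1*, *Cept1*, *Pemt*, *Ptdss1*, *Ptdss2*, *Pisd* and *Lpcat3*. They were chosen by name for their place in the pathway, from the 48795 genes in the files, and all 10 were among the 15625 genes that passed the filter on low counts and were tested. Bulk RNA sequencing was done on liver and liver tumors of male C57BL/6J mice in 25 samples of 5 groups, and tissue was collected at 36 to 39 weeks of age. The nonDEN L-CD group (n = 3) is liver of mice fed the control diet (CD) without carcinogen, and nonDEN L-WD (n = 4) is liver of mice fed a western-type diet (WD) without carcinogen. The DEN groups received diethylnitrosamine (DEN), a liver carcinogen that alkylates DNA after activation in hepatocytes, as 1 dose of 25 mg/kg at 2 weeks of age, before the diets began. DEN L-CD (n = 4) is liver of such mice on CD, in which tumors were too small to be cut away from the liver around them, so this tissue can hold small tumors. DEN PT-WD (n = 8) is the peritumoral liver and DEN T-WD (n = 6) the tumor tissue of DEN mice on WD. Tumors were thus compared in mice on WD alone, and a tumor group on CD was not analysed here. In bulk tissue, fewer cells of a type and less RNA per cell cannot be told apart.

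Phosphatidylcholine is the most abundant phospholipid of animal membranes and the main phospholipid coat of lipoproteins and bile. In the Kennedy pathway choline is phosphorylated by the choline kinases CHKA and CHKB, activated to CDP-choline by PCYT1A, which is the regulated step, and joined to diacylglycerol by CHPT1 in the Golgi or CEPT1 in the endoplasmic reticulum. Hepatocytes have an additional route, in which PEMT adds methyl groups from S-adenosylmethionine to phosphatidylethanolamine. Phosphatidylserine is made by base exchange, by PTDSS1 from phosphatidylcholine and by PTDSS2 from phosphatidylethanolamine, and PISD decarboxylates it to phosphatidylethanolamine in mitochondria. LPCAT3 places polyunsaturated acyl chains into lysophospholipids, and in liver it is a known target of the sterol-sensing LXR receptors.

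Libraries held between 21530100 and 38074400 expected counts in genes (median 27610400), and the lowest expected count of any of the 10 genes in a library was 127, for *Ptdss2*. Values are given as normalized counts, which are expected counts scaled to 1 common effective library size, and as TPM, a level scaled for transcript length and library total, where levels of different genes are set side by side. Hepatocyte markers were high in every group, with a summed TPM of 29317 or more over the 6 genes in each library. One tumor library stood apart: replicate 5 differed from its group mean by a root mean square of 0.81 log2 units over all tested genes, against at most 0.66 in the other libraries of the series, and its *Alb* level was 21879 TPM where the other tumors had 82845 to 99736. For the 10 genes and the genes that border them, fold changes and counts of calls by edgeR that include it are given with and without it. Calls of cell type markers and values on TPM include it unless said otherwise. Markers of pancreatic acinar cells reached a summed TPM of 5124 in a peritumoral library and were as low as 0.25 in another library, with no marker of that list called in any comparison described here.

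Because the direction of change differed between members of the same pathway, the promoter sequences of the gene that was higher in tumors (*Chka*) and of the pair with the largest falls (*Chpt1* and *Pemt*) are shown. They are RefSeq promoters of the GRCm38.p6 assembly, from 250 bases before to 50 bases after an annotated start, written 5′ to 3′ on the gene's strand. Capitals mark GC boxes (GGGCGG or its complement) and CCAAT boxes (CCAAT or its complement). The *Chka* promoter lies at chr19:3851523-3851822 on the plus strand, that of *Chpt1* at chr10:88503921-88504220 on the minus strand, and the *Pemt* promoter shown at chr11:60040139-60040438 on the minus strand.
Chka: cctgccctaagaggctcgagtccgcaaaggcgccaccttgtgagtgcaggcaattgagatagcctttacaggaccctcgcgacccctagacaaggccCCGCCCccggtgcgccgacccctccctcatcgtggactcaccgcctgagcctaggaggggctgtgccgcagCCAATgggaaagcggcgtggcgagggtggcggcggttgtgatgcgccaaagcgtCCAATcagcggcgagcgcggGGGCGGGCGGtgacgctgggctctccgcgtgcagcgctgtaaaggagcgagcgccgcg
Chpt1: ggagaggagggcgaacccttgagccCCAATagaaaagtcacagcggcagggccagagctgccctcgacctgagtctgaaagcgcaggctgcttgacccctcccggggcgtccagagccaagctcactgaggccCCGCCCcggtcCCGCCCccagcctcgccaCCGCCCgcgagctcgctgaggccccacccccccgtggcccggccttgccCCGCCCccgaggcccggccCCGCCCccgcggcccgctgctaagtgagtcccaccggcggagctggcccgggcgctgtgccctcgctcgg
Pemt: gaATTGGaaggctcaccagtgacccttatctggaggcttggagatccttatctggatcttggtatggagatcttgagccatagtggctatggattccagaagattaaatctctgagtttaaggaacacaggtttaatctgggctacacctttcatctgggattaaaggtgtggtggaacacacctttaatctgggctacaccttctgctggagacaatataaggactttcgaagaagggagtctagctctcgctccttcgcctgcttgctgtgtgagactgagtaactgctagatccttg

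The *Chka* window held 3 GC boxes, of which 2 overlap, and 2 CCAAT boxes. The *Chpt1* window held 5 GC boxes and 1 CCAAT box. In the *Pemt* window 1 CCAAT box and no GC box was found. GC content was 68.7% for *Chka*, 75.3% for *Chpt1* and 46.3% for the *Pemt* window shown, against a median of 52.7% over all 32851 mouse promoters of the same length. Another *Pemt* promoter, at chr11:60036956-60037255 on the minus strand, is not shown. It had 51.7% GC and neither a GC box nor a CCAAT box. RefSeq gave 15 promoters for 9 of the 10 genes, and *Ptdss1* had no entry. Some windows of *Cept1* and of *Pcyt1a* overlap and hold the same GC boxes. The counts that follow are thus of windows and not of genes or separate sites. A GC box was in 10 of those 15 and in 35.66% of all promoters, and a CCAAT box was in 7 of 15 and in 37.41% of all. TATAAA occurred in the *Chkb* promoter alone among the members (13.62% of all promoters). Searched on both strands, the letters TGANTCA (7.81% of all) and CACGTG (7.15% of all) were in none of the 15. These are matches of letters and not measured binding.

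The genes lie apart from each other in GRCm38: *Chka* on chromosome 19 (3851773 to 3894369, plus strand), *Chkb* on chromosome 15 (89426360 to 89429908, minus strand), *Pcyt1a* on chromosome 16 (32430921 to 32475070, plus strand), *Chpt1* on chromosome 10 (88452745 to 88504073, minus strand) and *Cept1* on chromosome 3 (106502260 to 106547802, minus strand). *Pemt* lies on chromosome 11 (59970614 to 60046489, minus strand), *Ptdss1* on chromosome 13 (66932830 to 66998401, plus strand), *Ptdss2* on chromosome 7 (141122382 to 141157606, plus strand), *Pisd* on chromosome 5 (32736301 to 32785646, minus strand) and *Lpcat3* on chromosome 6 (124663027 to 124704418, plus strand). Some of them share exon bases with other annotated genes, and whether strand was used in the counting is not given in the sources used here. *Chkb* shared 50.7% of its exon bases with Gm44502 on the same strand, *Cept1* shared 24.7% with *Dennd2d* on the other strand (median 6.15 TPM), and *Lpcat3* shared 10.2% with *Emg1* (median 36.4 TPM). Of the words of 50 bases in *Pisd* exons 19.1% occurred in another gene. Gm20671, at 0 TPM in every library, held 17.9%, and the pseudogenes *Pisd-ps1* and *Pisd-ps2* held 2.64% and 3.43%. By shared sequence alone, the values of *Chkb*, *Cept1*, *Lpcat3* and *Pisd* are less certain than those of *Pemt* and *Ptdss2*. Of the words of *Pemt* and *Ptdss2*, 0.09% and 0% were shared. Gm44502 had no TPM value, and how far reads of such genes entered the counts was not tested.

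Per length, *Pemt* and *Chpt1* had the highest mean of the 10 transcripts in every group and *Ptdss2* the lowest. In tumors *Chpt1* led *Lpcat3* by less than its SD (medians 91.9 and 79.7 TPM). In nonDEN L-CD liver *Pemt* stood at 159 ± 4.53 TPM (SD, n = 3) and *Chpt1* at 128 ± 18.8 TPM, whereas *Ptdss2* stood at 5.04 ± 1.35 TPM. The others lay between: *Cept1* had 56.2 ± 4.45 TPM, *Lpcat3* 36.2 ± 7.89, *Pcyt1a* 26.8 ± 3.08, *Chkb* 25.6 ± 6.21, *Chka* 15.5 ± 8.06, *Ptdss1* 14.97 ± 1.26 and *Pisd* 12.1 ± 2.50. Within this order, *Pcyt1a* and *Chkb* differed by less than their SD, as did *Chka* and *Ptdss1*. In tumors the order changed mainly in the middle. *Pemt* (105 ± 18.9 TPM, n = 6) and *Chpt1* (105 ± 44.8 TPM) could not be told apart, *Lpcat3* reached 79.1 ± 10.8 TPM next to *Cept1* at 68.5 ± 7.48 TPM, and *Chka* moved from 9th place in peritumoral liver (13.5 ± 4.75 TPM, n = 8) to 5th (35.8 ± 11.0 TPM), level within its SD with *Pcyt1a* at 32.8 ± 6.91 TPM. These means include tumor replicate 5, which had the fewest *Chka* and the most *Pcyt1a* counts of the tumors. The tumor medians were 39.1 TPM for *Chka* and 30.6 TPM for *Pcyt1a*.

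**Figure D1:**
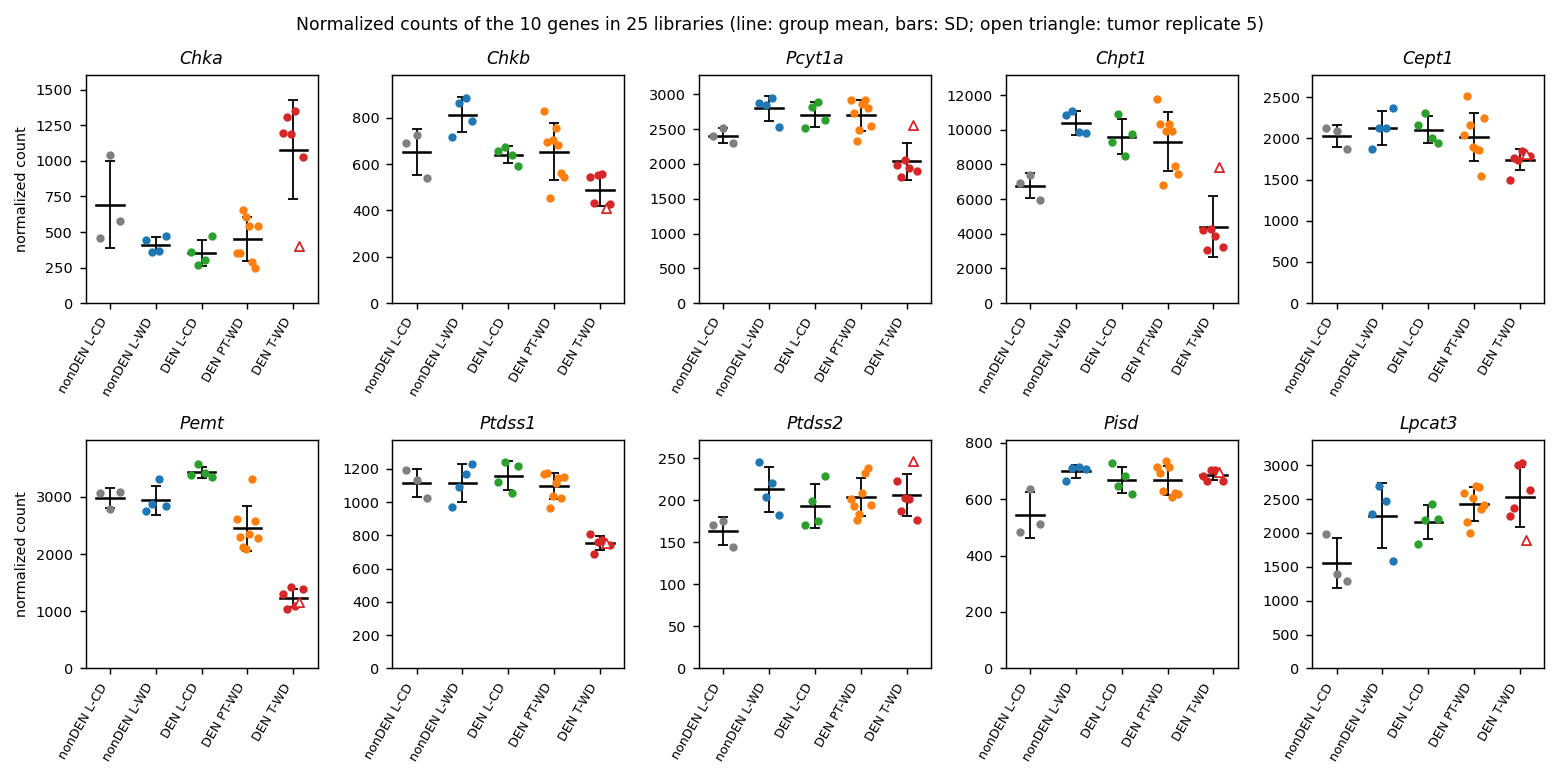
Normalized counts (y axis, linear from 0) of each of the 10 genes in the 25 libraries by group; points are libraries, lines group means and bars SD, and the open triangle is tumor replicate 5. *Chka* stands at 1031 to 1348 in 5 tumors and at 403 in tumor replicate 5, and *Pemt* at 1038 to 1424 in all 6 tumors, below every other library.

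The tumor comparison asked how 2 tissues of the same diet and carcinogen differed. From peritumoral liver to tumors *Chka* rose 2.41-fold, whereas *Chpt1* fell 2.11-fold, *Pemt* 1.99-fold, *Ptdss1* 1.46-fold, *Chkb* 1.34-fold and *Pcyt1a* 1.32-fold. *Cept1*, *Ptdss2*, *Pisd* and *Lpcat3* did not pass the test. By edgeR's quasi-likelihood test at an adjusted p of at most 0.05, 6 of the 10 genes were called, 1 higher and 5 lower, where 37.7% of all genes tested were called (19.5% higher and 18.1% lower). At the additional requirement of a 2-fold change, *Chka* and *Chpt1* were called, against 7.9% of all genes, and the same 2 were called without tumor replicate 5 (8.31%). The median log2 fold change of the 10 genes was −0.31, beside 0.01 over all genes (−0.30 and −0.01 without tumor replicate 5). Without tumor replicate 5 the count was 7 (41.3% of all genes), because *Cept1* joined the genes that fell. With limma on log2(TPM + 1) *Chkb* (−0.30) and *Pcyt1a* (−0.26) kept their direction and were not called.

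*Chka*, the choline kinase that forms homodimers and pairs with CHKB, had normalized counts of 248 to 653 in the 8 peritumoral libraries (median 447) and of 1196, 1311, 1189.9, 1348, 403 and 1031 in the tumors. In 5 of 6 tumors the count lay above the whole peritumoral range, and tumor replicate 5 lay inside it. The log2 fold change was 1.27 ± 0.25 (SE, adjusted p = 0.00035 by edgeR) over all 6 tumors and 1.44 ± 0.21 (adjusted p = 1.33e-05 by edgeR) without replicate 5. *Chkb*, the second choline kinase, was lower instead, with 413 to 559 in tumors (median 489) and 456 to 829 in peritumoral liver (median 690.0). Those ranges overlapped, with a log2 fold change of −0.42 ± 0.11 (adjusted p = 0.0050 by edgeR) and −0.38 ± 0.12 without replicate 5. The share of *Chka* in the summed TPM of both kinases was 29.1 ± 9.11% in peritumoral liver (20.1 to 45.9%) and 56.5 ± 9.41% in tumors (38.2 to 64.1%), and it was 55.6 to 64.1% in the tumors other than replicate 5. The shares are a description and were not tested.

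*Pcyt1a*, which encodes the enzyme that makes CDP-choline, had 1983, 1818, 2054, 1935, 2556 and 1893 normalized counts in tumors and 2327 to 2924 in peritumoral liver (median 2769.6). Here again replicate 5 was the tumor that fell within the peritumoral range. The log2 fold change was −0.40 ± 0.07 (adjusted p = 0.00012 by edgeR) and −0.48 ± 0.06 without replicate 5. For *Chpt1*, the Golgi cholinephosphotransferase, the tumors had 4239.5, 3060.2, 4252, 3850.5, 7835 and 3217 counts against 6808 to 11751 in peritumoral liver (median 9916). All tumors but replicate 5 were below the lowest peritumoral library. Its log2 fold change was −1.08 ± 0.17 (adjusted p = 3.1e-05 by edgeR), and −1.32 ± 0.12, a 2.5-fold fall, without replicate 5. Without tumor replicate 2 it was −0.99, short of 2-fold. *Cept1*, which uses both CDP-choline and CDP-ethanolamine, had 1494 to 1854 in tumors and 1548 to 2520.1 in peritumoral liver, with a log2 fold change of −0.21 ± 0.08 (adjusted p = 0.051 by edgeR; 95% interval −0.38 to −0.04). Without tumor replicate 5 it was −0.22 ± 0.09 with an adjusted p of 0.049 by edgeR, and without peritumoral replicate 5, 6 or 7 it was also called (−0.23, −0.23 and −0.26). The share of *Chpt1* in the TPM of this pair was 74.1 ± 5.03% in peritumoral liver and 59.0 ± 7.99% in tumors (56.6 ± 6.17% without replicate 5).

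*Pemt*, the methyltransferase of the hepatocyte route, was lower in every tumor. Its normalized counts were 1309, 1038, 1424, 1099, 1158 and 1386 in tumors and 2087 to 3312 in peritumoral liver (median 2325). No tumor reached the lowest peritumoral library, and here replicate 5 lay among the other tumors. The log2 fold change was −0.99 ± 0.09 (adjusted p = 8.6e-08 by edgeR), which is just short of 2-fold, and −0.97 ± 0.10 without replicate 5. The same separation was seen for *Ptdss1*, the base-exchange enzyme that consumes phosphatidylcholine. It had 809, 685, 759, 774, 752 and 742 counts in tumors and 967 to 1175 in peritumoral liver (median 1131), with a log2 fold change of −0.54 ± 0.06 both with (adjusted p = 7.4e-07 by edgeR) and without replicate 5. These were the 2 genes without overlap between the groups, where 9.45% of all genes had none. Without replicate 5 *Chka*, *Pcyt1a* and *Chpt1* also had none, which made 5 of 10 beside 19.1% of all genes.

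The remaining enzymes of the phosphatidylserine branch and of acyl exchange differed little. *Ptdss2*, which makes phosphatidylserine from phosphatidylethanolamine, had 177 to 246 counts in tumors and 176 to 239 in peritumoral liver, with a log2 difference of 0.02 (95% interval −0.17 to 0.21). *Pisd* had 663 to 704 and 606 to 736, with a difference of 0.04 (−0.08 to 0.16). *Lpcat3* had 2245, 2363, 2999, 3033, 1898 and 2630.0 in tumors and 1993 to 2690.4 in peritumoral liver, a difference of 0.06 (−0.19 to 0.31). For these 3 genes neither bound of the interval lay further than 0.31 log2 units from 0, and without replicate 5 their differences were −0.04, 0.04 and 0.13. The share of *Ptdss1* in the summed TPM of the *Ptdss* pair was 69.8 ± 3.66% in peritumoral liver (62.8 to 75.3%) and 60.7 ± 1.81% in tumors (57.2 to 62.2%, and 60.7 to 62.2% without replicate 5), so these ranges did not overlap.

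**Figure D2:**
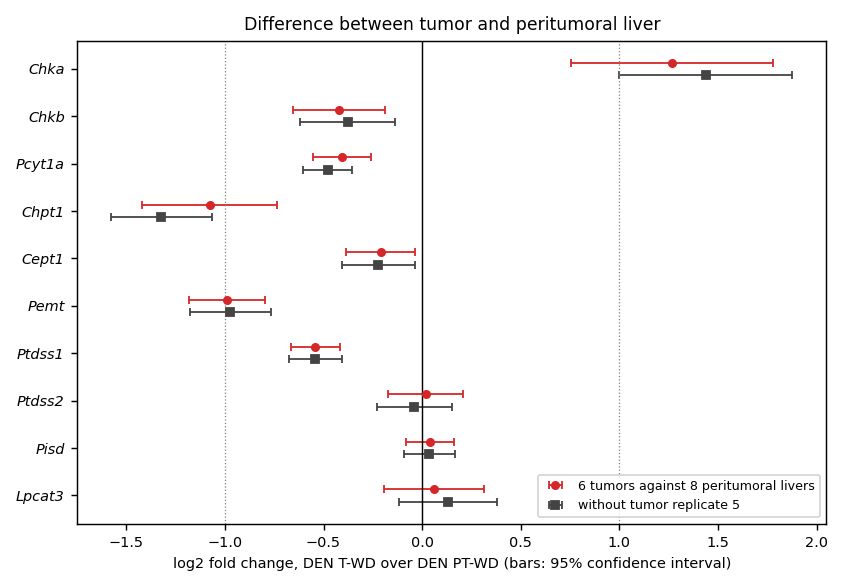
Log2 fold change of tumor over peritumoral liver (x axis) for the 10 genes (y axis), with 95% confidence intervals, over all 6 tumors and without tumor replicate 5. *Chka* lies at 1.27 and 1.44, *Chpt1* at −1.08 and −1.32 and *Pemt* at −0.99 and −0.97, and the intervals of *Ptdss2*, *Pisd* and *Lpcat3* span 0.

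**Figure D3:**
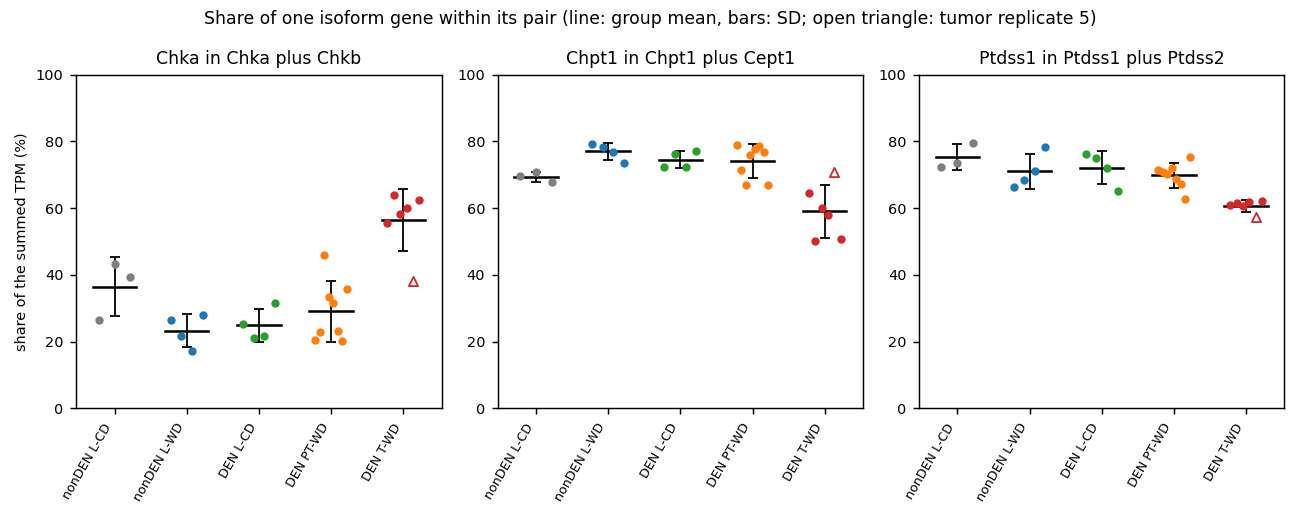
Share of *Chka*, *Chpt1* and *Ptdss1* in the summed TPM of their isoform pair (y axis, %, from 0 to 100) by group; points are libraries, lines means, bars SD, and the open triangle is tumor replicate 5. The *Chka* share averages 56.5% in tumors and 23.3 to 36.5% in the other groups, and the *Ptdss1* share of all tumors lies below the peritumoral minimum of 62.8%.

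Markers of other cell types moved between the 2 tissues as well, and their part in these results was not tested. All 4 proliferation genes were called higher in tumors, with a summed TPM of 14.0 to 27.6 against 4.47 to 17.0. Of the 6 stellate cell and fibroblast markers 4 were higher and 2 lower (summed TPM 81.1 to 135 against 55.3 to 90.3). Among 5 bile duct markers *Spp1* and *Sox9* were higher (summed TPM 385 to 833 against 72.7 to 325), while *Krt19*, a defining duct marker, was low in both tissues (0.80 to 4.60 TPM against 1.87 to 6.21 TPM). Of 5 macrophage markers *Clec4f* was lower and none was higher, none of 5 lymphocyte markers and 1 of 4 endothelial markers was called, and of 6 hepatocyte markers 2 were higher and 2 lower. The summed TPM of these hepatocyte markers was 105356 to 125422 in 5 tumors and 29317 in replicate 5, against 39759 to 67579 in peritumoral liver, so 5 of 6 tumors lay above and 1 below the peritumoral range. Summed TPM of macrophage markers was 216 to 549 in tumors and 215 to 455 in peritumoral liver, with the highest value in replicate 5.

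The tumors were also compared with the liver of the other groups, which share the 6 tumor libraries among them and are therefore not independent of the comparison above. Against nonDEN L-WD liver 7 genes were called (49% of all genes): *Pemt* (log2 fold change −1.25 ± 0.11), *Chpt1* (−1.24 ± 0.19), *Chkb* (−0.74 ± 0.13), *Ptdss1* (−0.56 ± 0.07) and *Pcyt1a* (−0.46 ± 0.08) were lower, *Cept1* was lower at −0.28 ± 0.10 but at 0.10 on TPM, and *Chka* was higher at 1.39 ± 0.31. *Pemt*, *Chpt1* and *Chka* passed 2-fold (15.7% of all genes), as they did without tumor replicate 5 (15.2%). *Cept1* was not called without nonDEN L-WD replicate 4 (−0.23) or tumor replicate 1 (−0.24), and *Pcyt1a* was not called on TPM (−0.09). Against DEN L-CD liver 7 genes were again called (46.9% of all genes), of which *Chka* was higher at 1.62 ± 0.32 and *Pemt* (−1.47 ± 0.11), *Chpt1* (−1.12 ± 0.19) and *Ptdss1* (−0.62 ± 0.07) lower. *Pcyt1a* (−0.41 ± 0.08), *Chkb* (−0.39 ± 0.13) and *Cept1* (−0.27 ± 0.10) were called lower on counts, and on TPM their differences were above 0 and not called, while *Ptdss1* was −0.17 there and not called. *Cept1* was not called without DEN L-CD replicate 1 or 2 (−0.26 and −0.23) or tumor replicate 1 (−0.23), nor *Chkb* without DEN L-CD replicate 2 (−0.37). Against nonDEN L-CD liver 8 genes were called (54% of all genes). *Pemt* (−1.27 ± 0.11), *Chpt1* (−0.62 ± 0.21) and *Ptdss1* (−0.57 ± 0.08) were lower, *Lpcat3* (0.70 ± 0.17), *Ptdss2* (0.34 ± 0.12) and *Pisd* (0.33 ± 0.08) were higher, and *Chkb* (−0.42 ± 0.14) and *Pcyt1a* (−0.24 ± 0.09) were lower on counts and above 0 on TPM. The difference of *Chka* there was 0.64 ± 0.33 and did not pass (adjusted p = 0.109 by edgeR). Several of these calls depended on single libraries. Without nonDEN L-CD replicate 2, *Pcyt1a* (−0.20), *Chpt1* (−0.55) and *Chkb* (−0.34) were not called. *Pcyt1a* was not called without tumor replicate 1, 2, 4 or 6 (−0.23, −0.20, −0.22 and −0.22), nor *Ptdss2* without nonDEN L-CD replicate 1 or 3 (0.34 and 0.25) or tumor replicate 5 (0.28). On TPM *Chpt1* (−0.36) and *Ptdss1* (−0.08) were not called. With only these groups fitted 5 of the 8 were called, *Pcyt1a* (−0.23), *Chpt1* (−0.61) and *Ptdss2* (0.34) not being among them, and *Pcyt1a* was not called without the filter (−0.23). The nonDEN L-CD library with 1039 *Chka* counts lay within the tumor range of 403 to 1348, and without it the difference was 1.06 and was called. Without tumor replicate 5 it was 0.81 ± 0.28 and was called too.

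Without tumor replicate 5 these comparisons called 7 members against nonDEN L-WD (51% of all genes), 7 against DEN L-CD (48.9%) and 8 against nonDEN L-CD (55.8%), and in the last of them *Chka* came in and *Ptdss2* dropped out. In that order *Chpt1* was then at −1.48 ± 0.14, −1.37 ± 0.14 and −0.86 ± 0.15, and *Chka* at 1.57 ± 0.26, 1.79 ± 0.27 and 0.81 ± 0.28. *Pemt* was at −1.23, −1.45 and −1.25, *Ptdss1* at −0.56, −0.62 and −0.56, *Pcyt1a* at −0.53, −0.48 and −0.31, and *Chkb* at −0.69, −0.35 and −0.38. *Cept1* was at −0.30 against nonDEN L-WD and at −0.28 against DEN L-CD, and *Lpcat3* and *Pisd* stood at 0.77 and 0.33 against nonDEN L-CD. Summed TPM in these 3 groups was 1.66 to 6.59 for proliferation genes, 19.1 to 62.1 for stellate cell and fibroblast markers, 5.68 to 11.7 for lymphocyte markers (12.2 to 27.7 in tumors), 39.4 to 64.5 for endothelial markers (82.2 to 97.6 in tumors) and 32.4 to 68.6 for bile duct markers, all below the tumors. Macrophage markers overlapped, at 139.6 to 285 in these groups and 216 to 549 in tumors. That of hepatocyte markers was 51093 to 68565, below 5 tumors and above replicate 5, and their part in these results was not tested.

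The split of the calls in these 3 comparisons was different on TPM. With counts normalized by the trimmed mean of M values (TMM), 1 gene was higher and 6 lower against nonDEN L-WD, 1 and 6 against DEN L-CD, and 3 and 5 against nonDEN L-CD. With limma on log2(TPM + 1) these were 4 and 4, 4 and 2, and 5 and 1. The median of all genes moved by 0.24, 0.29 and 0.31 log2 units between the scales in these comparisons. Between tumor and peritumoral liver it moved by 0.085, where 3050 of 5884 called genes were higher on counts and 4222 of 5616 on TPM, and none of the 10 genes changed direction. *Chka* lay above 0 and *Pemt* and *Chpt1* below 0 on both scales in all 4 tumor comparisons. Of these values, *Chka* on counts (0.64) and *Chpt1* on TPM (−0.36), both against nonDEN L-CD, did not pass the test.

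Diet in mice without carcinogen was asked of nonDEN L-WD against nonDEN L-CD liver. *Lpcat3*, *Ptdss2* and *Pisd* rose on WD, by 1.45-fold, 1.31-fold and 1.28-fold, and no member fell. These 3 calls stand beside 23.2% of all genes (11.2% higher). *Lpcat3* had 1987, 1392 and 1295 counts on CD and 2284, 2693, 2466 and 1583 on WD. One library of each diet lay in the range of the other, with a log2 fold change of 0.53 ± 0.18 (adjusted p = 0.031 by edgeR). *Pisd* had 483, 634 and 513 on CD and 665, 709.6, 714 and 705 on WD, without overlap (0.36 ± 0.08, adjusted p = 0.0036 by edgeR), and *Ptdss2* had 170.0, 175 and 144 against 246, 204, 220.1 and 182, also without overlap (0.39 ± 0.13, adjusted p = 0.038 by edgeR). *Chpt1* and *Pcyt1a* did not overlap either, so that 4 of 10 genes had none, beside 30.7% of all genes. *Chpt1* had 6913, 7409.9 and 5975 on CD and 10856, 11078, 9847 and 9785 on WD. That difference of 0.62 ± 0.23 missed the threshold (adjusted p = 0.056 by edgeR) and passed with DESeq2 (0.61), with limma on TPM (0.74) and with only these groups fitted (0.63). *Chka* varied most on CD, at 461, 1039 and 576, and had 444, 363, 367 and 469.8 on WD, a difference of −0.75 ± 0.35 that was not called (adjusted p = 0.126 by edgeR). *Pemt* (−0.02, 95% interval −0.28 to 0.24) and *Ptdss1* (0.00, −0.18 to 0.17) stayed close to their CD levels. The call of *Pisd* held with any 1 library left out. *Ptdss2* was not called without any 1 of nonDEN L-CD replicates 1, 2 and 3 (0.40, 0.44 and 0.30) or of nonDEN L-WD replicates 1, 2 and 3 (0.31, 0.41 and 0.37), nor on TPM (0.35), without the filter (0.40) or with only these groups fitted (0.39). *Lpcat3* was not called with only these groups fitted (0.54) or without nonDEN L-CD replicate 2 or 3 (0.46 and 0.42) or nonDEN L-WD replicate 1, 2 or 3 (0.53, 0.44 and 0.49). Of the markers, 3 of 6 stellate cell and fibroblast genes and 1 of 5 lymphocyte genes were higher on WD (summed TPM 19.1 to 62.1 against 21.3 to 27.1, and 6.05 to 9.69 against 5.68 to 6.56), 1 of 5 bile duct genes was lower although the summed TPM of that list was higher without overlap (45.2 to 68.6 against 32.4 to 39.1), and 1 of 6 hepatocyte genes went each way, and their part in these results was not tested.

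The effect of DEN on CD was asked of DEN L-CD against nonDEN L-CD liver, where *Pisd* was the member called. It had 727, 646, 682 and 619 counts after DEN, a log2 fold change of 0.30 ± 0.08 (adjusted p = 0.013 by edgeR, 21.3% of all genes called), and the lowest DEN library was below the highest library without DEN. It was not called without nonDEN L-CD replicate 1 or 3 (0.21 and 0.26), nor on TPM (0.33) or with only these groups fitted (0.29). *Chka* had 363, 267, 306 and 472 counts after DEN, a difference of −0.98 ± 0.35 that just missed the threshold (adjusted p = 0.051 by edgeR). It passed with DESeq2 (−0.97), with only these groups fitted (−0.98) and without nonDEN L-CD replicate 1 (−1.21) or DEN L-CD replicate 4 (−1.15). *Lpcat3* was at 1832, 2199, 2433 and 2202 (0.48 ± 0.18, adjusted p = 0.056 by edgeR), which passed with DESeq2 (0.48) and without nonDEN L-CD replicate 1 (0.68) or DEN L-CD replicate 1 (0.55). Of the markers, 2 of 5 lymphocyte genes and 1 of 6 stellate cell and fibroblast genes were higher after DEN and 1 of 4 endothelial and 1 of 5 bile duct genes lower. Summed TPM was higher after DEN without overlap for bile duct markers (39.9 to 66.0 against 32.4 to 39.1), proliferation genes (4 to 6.33 against 1.66 to 3.48, with none of 4 called), lymphocyte markers (6.98 to 11.7 against 5.68 to 6.56) and stellate cell and fibroblast markers (30.4 to 32.7 against 21.3 to 27.1), and their part was not tested. *Chpt1*, at 8472 to 10878, and *Pemt*, at 3348 to 3576, lay above all nonDEN L-CD libraries without being called, although *Chpt1* was called with only these groups fitted (0.50), and 34.3% of all genes had no overlap in this comparison of small groups. Since DEN L-CD and nonDEN L-WD were both set against the same 3 libraries, they were also compared with each other. None of the 10 genes was called there, and 0.717% of all genes were. By unadjusted p of at most 0.05 in edgeR 1 member was lower (*Chkb*, −0.34 ± 0.15) and none higher, beside 7.52% of all genes lower at that threshold, and DESeq2 and limma called 0.

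In mice on WD, peritumoral liver was compared with liver of mice without DEN. None of the 10 genes was called, with 12.4% of all genes called. At an unadjusted p of at most 0.05 in edgeR 2 were lower and none higher, beside 12.9% of all genes lower at that threshold, and these were *Chkb* (−0.31 ± 0.12) and *Pemt* (−0.26 ± 0.10, and 0.14 on TPM), and DESeq2 and limma called 0. *Pemt* was called without peritumoral replicate 6 (−0.34), its highest library, and *Chkb* without peritumoral replicate 1 (−0.37). Markers of other cell types were called higher in peritumoral liver and none lower, namely 3 of 6 stellate cell and fibroblast, 3 of 4 proliferation, 2 of 5 macrophage, 2 of 5 lymphocyte, 2 of 4 endothelial and 1 of 5 bile duct genes. Their summed TPM did not overlap for bile duct (72.7 to 325 against 45.2 to 68.6), endothelium (67.1 to 89.8 against 40.2 to 64.5) and lymphocytes (9.86 to 25.5 against 6.05 to 9.69), and their part was not tested. *Chka* had 444, 363, 367 and 469.8 counts in nonDEN L-WD and 248 to 653 in peritumoral liver, with an interval from −0.47 to 0.72 that is too wide to place it. Between the DEN groups, *Pemt* was lower in peritumoral liver of WD mice than in DEN L-CD liver, which had 3376, 3576, 3422 and 3348 counts. All 8 peritumoral libraries, at 2087 to 3312, were below them, and 7.44% of all genes had no overlap in this comparison. The log2 fold change was −0.48 ± 0.10 (adjusted p = 0.0055 by edgeR), and *Pemt* was the only member called, with 10.6% of all genes called and 3.76% called lower. On TPM this difference was −0.15 and not called, the median of all genes being 0.21 higher on that scale, and 5 other members were called higher. Of markers of other cell types, 3 of 5 macrophage, 3 of 6 stellate cell and fibroblast, 3 of 4 endothelial and 1 of 5 bile duct genes were called higher in peritumoral liver than in DEN L-CD, and their part in the result was not tested. The summed TPM of macrophage markers was 215 to 455 in peritumoral liver and 157 to 246 in DEN L-CD. It did not overlap for bile duct (72.7 to 325 against 39.9 to 66.0), stellate cell and fibroblast (55.3 to 90.3 against 30.4 to 32.7) and endothelial markers (67.1 to 89.8 against 43.6 to 50.9).

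Peritumoral liver differs from nonDEN L-CD liver in both diet and DEN. There 4 genes were called (45.3% of all genes), *Lpcat3* (0.64 ± 0.16), *Ptdss2* (0.32 ± 0.12) and *Pisd* (0.29 ± 0.07) as higher and *Pemt* (−0.28 ± 0.11) as lower on counts but at 0.27 on TPM, where it was not called. The split was thus 3 higher and 1 lower on counts and 7 higher and 0 lower on TPM. Summed TPM of stellate cell and fibroblast markers was 55.3 to 90.3 in peritumoral liver and 21.3 to 27.1 in nonDEN L-CD, and that of macrophage markers 215 to 455 and 139.6 to 223. It was also higher without overlap for bile duct (72.7 to 325 against 32.4 to 39.1), lymphocyte (9.86 to 25.5 against 5.68 to 6.56), endothelial (67.1 to 89.8 against 39.4 to 49.7) and proliferation genes (4.47 to 17.0 against 1.66 to 3.48). Called higher were 4 of 6 stellate cell and fibroblast, 4 of 4 proliferation, 3 of 5 macrophage, 3 of 5 lymphocyte, 3 of 4 endothelial and 1 of 5 bile duct genes and called lower 2 of 6 hepatocyte genes, and their part was not tested. *Pemt* was not called without the filter (−0.28), with only these groups fitted (−0.28), or without any 1 of the nonDEN L-CD libraries (−0.29, −0.33 and −0.26) or of peritumoral replicates 2 to 5 (−0.27, −0.25, −0.25 and −0.27). *Ptdss2* was not called without the filter (0.32), without nonDEN L-CD replicate 1 or 3 (0.32 and 0.24) or peritumoral replicate 6, 7 or 8 (0.29, 0.28 and 0.30), nor *Pisd* without nonDEN L-CD replicate 1 (0.19). Leaving out that library brought *Chka* to a call (−0.88), and leaving out peritumoral replicate 3 brought *Chpt1* to one (0.51), as did fitting only these groups (0.46). Whether diet acted differently in DEN mice was tested as the interaction in tissue outside tumors, with peritumoral liver standing for DEN mice on WD. *Pisd* was the 1 member called, at −0.37 ± 0.11 (adjusted p = 0.035 by edgeR, 8.39% of all genes). Its mean count rose with WD from 543 ± 79.9 to 699 ± 22.6 in mice without DEN and was 668 ± 46.9 on CD and 666 ± 52.8 in peritumoral liver after DEN. It was not called with any 1 of 8 libraries left out (nonDEN L-CD replicates 1 and 3, nonDEN L-WD replicates 2, 3 and 4, DEN L-CD replicates 1 and 3, and DEN PT-WD replicate 8), with values from −0.36 to −0.29, nor on TPM (−0.15), without the filter (−0.39) or with only these groups fitted (−0.37). This 1 of 10 members stands near the share of all genes called. *Pemt* (−0.46 ± 0.16, adjusted p = 0.080) and *Chka* (1.10 ± 0.46, adjusted p = 0.136) did not pass by edgeR. *Pemt* passed with DESeq2 (−0.47) and without peritumoral replicate 6 (−0.54), and *Chpt1* (−0.67) with only these groups fitted.

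Genes that feed or border these steps were followed in 8 lists with 65 tested genes. In tumors against peritumoral liver 28 of the 65 fell and 7 rose, where 18.1% and 19.5% of all genes did. Without replicate 5 the counts were 33 and 7, where 20.4% and 20.9% of all genes did. The list with the largest share of falls held the methyl donors of the PEMT route, the enzymes that make S-adenosylmethionine, clear its product and burn choline through betaine. Of its 11 genes 8 fell (9 without replicate 5) and none rose, with a median of −0.61 (−0.62 without it). DESeq2 and limma also called 8 lower and 0 higher. *Bhmt*, betaine-homocysteine methyltransferase, fell from 56502 ± 9087 to 25300 ± 9368 normalized counts (−1.16 ± 0.22, and −1.39 ± 0.20 without replicate 5), and *Ahcy*, which hydrolyses S-adenosylhomocysteine, from 30274 ± 10000.2 to 13559 ± 2234 (−1.16 ± 0.17, and −1.20 ± 0.18 without it). In all, 4 of the 11 fell more than 2-fold, with and without replicate 5.

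In the ethanolamine arm 3 of 5 genes fell and 1 rose (median −0.47), and without replicate 5 it was 4 and 1 (median −0.45). *Etnppl*, which breaks down phosphoethanolamine, turned on that library. Its log2 fold change was −0.84 with an adjusted p of 0.149 by edgeR over all 6 tumors and −2.16 ± 0.20 with an adjusted p of 5.67e-08 by edgeR without replicate 5. The 2 ethanolamine kinases went opposite ways, *Etnk1* from 3125 ± 146 to 3746 ± 635 (0.26 ± 0.09, and 0.35 ± 0.07 without replicate 5) and *Etnk2* from 4169 ± 1295 to 2365 ± 808 (−0.82 ± 0.22, and −1.03 ± 0.21 without it). *Pcyt2*, whose enzyme makes CDP-ethanolamine, fell by 0.47 ± 0.11 (by 0.45 ± 0.11 without replicate 5). *Etnk1* was not called without peritumoral replicate 2 (0.25) or tumor replicate 2, 3 or 4 (0.23, 0.23 and 0.22).

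Of 10 transport genes 4 fell and 1 rose (median −0.28), and without replicate 5 it was 5 and 1 (median −0.35). *Stard7*, a phosphatidylcholine carrier to mitochondria, fell from 2824 ± 434 to 2009 ± 243 (−0.56 ± 0.08 without replicate 5), whereas *Slc44a3*, of the choline transporter-like family, rose from 269.6 ± 55.3 to 465 ± 31.1 (0.78 ± 0.12 without replicate 5). Of 12 breakdown genes 7 fell and 2 rose with and without replicate 5 (medians −0.33 and −0.36). *Gpcpd1*, a glycerophosphocholine phosphodiesterase, fell by 1.12 ± 0.24 and *Gde1* by 0.86 ± 0.16, and without replicate 5 these falls were 1.31 ± 0.25 and 1.10 ± 0.12. *Pld1*, phospholipase D, rose from 328 ± 56.4 to 666 ± 149 counts (1.02 ± 0.16, and 1.13 ± 0.15 without replicate 5) and *Pnpla7* rose by 0.35 ± 0.13 (0.48 ± 0.10 without it). *Pnpla7* was not called without peritumoral replicate 2, 7 or 8 or tumor replicate 1, 2, 3 or 4 (0.28 to 0.36).

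Among 8 genes of phosphatidylserine movement 3 fell and none rose (median −0.28; 4 lower and 0 higher at an unadjusted p of at most 0.05, beside 22.4% of all genes lower), and 4 fell without replicate 5 (median −0.28). *Osbpl5*, a lipid transfer protein, was at −0.50 ± 0.20 (−0.72 ± 0.18 without replicate 5). Among 6 genes of acyl remodelling *Mboat7*, which acts on lysophosphatidylinositol, rose by 0.30 ± 0.05 (0.35 ± 0.04 without replicate 5) and none fell. In the branch to phosphatidylglycerol and cardiolipin, with 7 genes, *Pgs1* rose by 0.32 ± 0.09 (0.27 ± 0.08 without replicate 5) and *Ptpmt1* fell by 0.28 ± 0.09 (by 0.39 ± 0.08 without it), and in that fit *Cds2* (−0.24 ± 0.09) and *Crls1* (−0.33 ± 0.09) fell too. Of 6 regulators *Srebf2*, of sterol synthesis, rose from 697 ± 56.1 to 1037 ± 177 (0.57 ± 0.09, and 0.66 ± 0.07 without replicate 5), and the bile acid receptor *Nr1h4* (−0.66 ± 0.09, and −0.62 ± 0.10 without it) and the fatty acid receptor *Ppara* (−0.38 ± 0.15) fell. *Ppara* was not called without replicate 5 (−0.28 ± 0.14). *Osbpl5* and *Ppara* were not called without any 1 of 9 and of 8 libraries (−0.50 to −0.40 and −0.40 to −0.28), nor *Ptpmt1* without tumor replicate 2 or 6 (−0.24 and −0.22), and on TPM none of the 3 was called. All values named for these lists over all 6 tumors, other than that of *Etnppl*, are from edgeR with an adjusted p of at most 0.05.

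**Figure D4:**
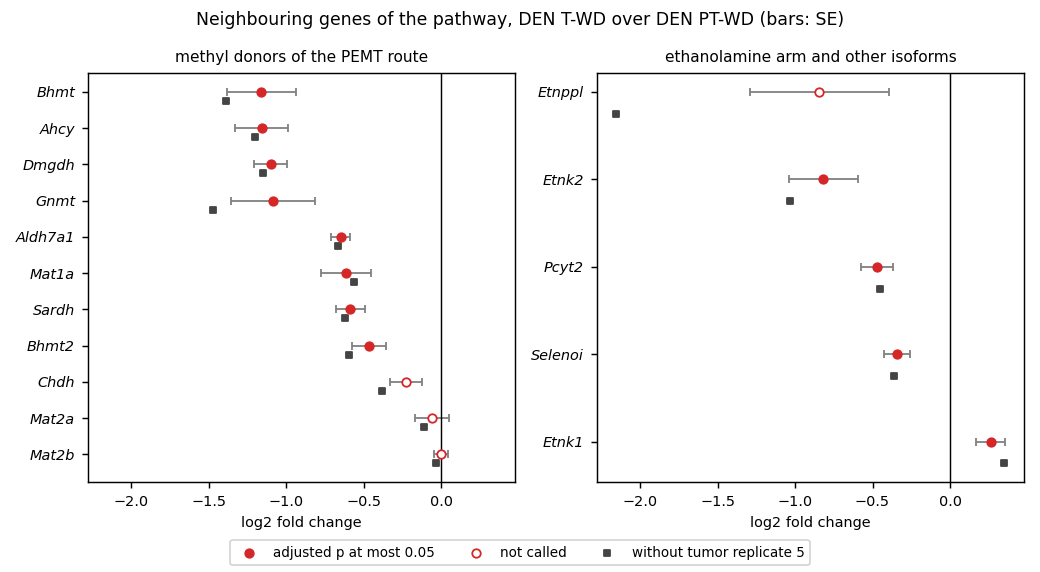
Log2 fold change of tumor over peritumoral liver (x axis) for the tested genes of 2 lists (y axis), 11 methyl donor genes and 5 of the ethanolamine arm; filled points are called at an adjusted p of at most 0.05, open points are not, bars are SE and squares give the value without tumor replicate 5. In the list of methyl donors 8 of 11 points are called and all of these lie below 0, down to −1.16.

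Under diet and DEN the same lists showed another picture. On WD without DEN 17 of the 65 genes rose and 8 fell, where 23.2% of all genes were called. *Srebf1*, the regulator of fatty acid synthesis, rose from 1111 ± 189.9 to 5978 ± 1989 counts (2.43 ± 0.41), *Pctp*, the phosphatidylcholine transfer protein, from 1631 ± 313 to 3045 ± 568 (0.90 ± 0.22) and *Tamm41* from 29.4 ± 10.2 to 56.2 ± 7.31. *Pld1* fell from 452 ± 149.9 to 227 ± 32.5 (−0.99 ± 0.23), and *Etnk1* fell by 0.65 ± 0.13. In DEN L-CD against nonDEN L-CD 11 rose and 7 fell, where 21.3% of all genes were called, and *Srebf1* (2.03 ± 0.40), *Pctp* (0.72 ± 0.22), *Tamm41* (0.92 ± 0.21), *Pld1* (−0.96 ± 0.23) and *Etnk1* (−0.52 ± 0.13) are among them. Both comparisons share the 3 nonDEN L-CD libraries. *Pld1* was not called on TPM in either (−0.64 and −0.56). After DEN, *Pctp* was not called without nonDEN L-CD replicate 2 or 3 or DEN L-CD replicate 1 (0.70, 0.60 and 0.67), nor *Etnk1* without nonDEN L-CD replicate 2 (−0.44). In peritumoral against nonDEN L-WD liver 7 fell and 3 rose, beside 12.4% of all genes called, with *Bhmt* at −0.84 ± 0.24 and *Lpcat2*, another lysophosphatidylcholine acyltransferase, at 0.78 ± 0.24. *Bhmt* was not called without nonDEN L-WD replicate 1, 3 or 4 (−0.75, −0.77 and −0.74) or on TPM (−0.54), nor *Lpcat2* without any of these or peritumoral replicate 3, 5 or 8 (0.69 to 0.75). Bile duct, endothelial and lymphocyte markers were higher in every peritumoral library than in nonDEN L-WD liver by summed TPM, as given above, and their part was not tested.

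*Chka* and *Pemt* were the 2 members whose group means spanned the widest range, of 1.55 and 1.48 log2 units. The second place turned on tumor replicate 5, since without it the ranges were 1.81 for *Chka*, 1.49 for *Chpt1* and 1.46 for *Pemt*. Over the 25 libraries, the genes whose centred log2 level followed *Chka* most closely were *Trim68*, *Ccdc149* and *Bcl2l1*, with root mean square differences of 0.24, 0.24 and 0.28 log2 units, where *Chka* itself varied with an SD of 0.75. For *Pemt* (SD 0.57) they were *Haao*, *Slc27a5* and *Ugt2a3*, at 0.11, 0.16 and 0.17. These are the closest of all tested genes by construction, and no test was made.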

How the data were processed

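RNA from liver and tumor tissue of 25 samples was sequenced as single-end libraries (KAPA mRNA HyperPrep kit). The authors aligned reads to GRCm38 with STAR and counted them with RSEM (versions not given in the sources used here), and deposited, for each sample, the expected counts, TPM and FPKM of 48795 gene IDs, of which 48349 matched a symbol. Whether strand was used in counting, and the annotation release, are not given in the sources used here. The deposited expected counts were rounded for testing. The deposited TPM values (levels per transcript length and library total, as computed by the authors with RSEM) served for levels between genes and isoform shares, and the deposited FPKM values served as an alternative for the shares.

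Groups were taken from the labels. The main test was edgeR 4.0.16 in R 4.3.3: TMM normalization, filterByExpr with a minimum count of 10 (15625 genes kept), 1 quasi-likelihood fit over the 5 groups without a replicate block, and Benjamini-Hochberg adjustment over all tested genes. Genes were called at an adjusted p of at most 0.05, and separately with a log2 change of at least 1. Groups without overlap were counted on normalized counts. Alternatives were DESeq2 1.42.0 and its size factors, limma 3.58.1 on log2(TPM + 1), no filter, only the groups compared, a replicate block and each library left out. A covariate for pancreatic acinar markers was chosen after seeing the data. Scripts were tested on simulated data. Sequences and motif matches were read with Python 3.11.15.

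The 10 genes, the lists of neighbouring genes and the markers were chosen with earlier results of these data known. Beside the 10 genes, named genes were, in each list, up to 2 with the largest change each way among those called between tumor and peritumoral liver, up to 1 each way for diet without DEN, for DEN on CD and for DEN on WD outside tumors, and, for the 2 members of widest range over group means, the 3 genes with the smallest root mean square difference. *Cds2*, *Crls1* and *Etnppl* were named after their values were seen. Some genes that this rule names are not reported here, and they remain in the counts of their lists. The labels do not say that replicates are separate animals, so p-values measure the spread between these samples, which may be technical in part. None of the 58 pairs of libraries within groups agreed within counting noise.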

Additional observations from a re-analysis of the deposited data

Results flagged for a closer look

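Within each group of 4 to 10 libraries, the normalized counts of the 10 genes were searched for a highest or lowest library with an unusually wide gap to its neighbour, and 5 of 40 such sets of values were found. Chance gives about 1 in 20 for independent sets. These sets share their libraries, so the count cannot be weighed against that rate. Tumor replicate 5 accounted for 3 of the 5 sets. It had 403 counts of *Chka* where the nearest tumor had 1031, 2556 of *Pcyt1a* where the nearest had 2054, and 7835 of *Chpt1* where the nearest had 4252, each towards the level of peritumoral liver. For *Pemt* (1158 counts) and *Ptdss1* (752) the same library lay among the other tumors. Tumor replicate 1 had 1494 counts of *Cept1*, below the nearest tumor at 1740.0. Peritumoral replicate 6 had 3312 counts of *Pemt*, above the nearest peritumoral library at 2609.8.

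For *Pisd* the interaction of DEN with diet was called, at −0.37 ± 0.11 log2 units (adjusted p = 0.035 by edgeR). After DEN, the WD tissue was peritumoral liver and the CD tissue was liver that can hold small tumors. Diet and the kind of tissue therefore cannot be told apart there. *Pisd* counts were higher on WD than on CD without DEN (mean 699 against 543) and alike after DEN (666 in peritumoral liver against 668). This call was lost with any 1 of 8 libraries left out (−0.36 to −0.29), on TPM (−0.15), without the filter (−0.39) and with only these groups fitted (−0.37), and 1 of 10 members stands near the 8.39% of all genes called.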

How the results depend on the processing

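Between tumor and peritumoral liver, 6 genes were called and leaving out 1 library at a time gave 6 to 7 (1 to 3 at 2-fold, where the main count was 2). *Chkb* (−0.30, adjusted p = 0.075) and *Pcyt1a* (−0.26, adjusted p = 0.0501) were not called with limma on log2(TPM + 1). In other comparisons, the counts that moved by more than 1.5 times from the main value, which stands in parentheses, were these. DEN L-CD versus nonDEN L-CD (1): 2 with only the groups compared, 2 with the replicate block (1 at 2-fold, versus 0), 0 with limma and 3 with DESeq2. DEN PT-WD versus nonDEN L-WD (0): 1 with the block. DEN PT-WD versus DEN L-CD (1): 5 with limma. DEN T-WD versus nonDEN L-CD (8): 5 with only the groups compared, and 2 at 2-fold with limma versus 1. DEN PT-WD versus nonDEN L-CD (4): 2 without the filter and 7 with limma. With limma the counts of the 3 other tumor comparisons moved by less, to 8 from 7 (nonDEN L-WD), 6 from 7 (DEN L-CD) and 6 from 8 (nonDEN L-CD). The interaction (1): 0 without the filter, 0 with limma and 2 with DESeq2. With 1 library left out the counts were 0 to 2 (0 to 1 at 2-fold) for DEN L-CD versus nonDEN L-CD, 0 to 1 for DEN PT-WD versus nonDEN L-WD, 2 to 4 for DEN PT-WD versus nonDEN L-CD, 5 to 7 for DEN T-WD versus DEN L-CD, 6 to 8 (1 to 2 at 2-fold) for DEN T-WD versus nonDEN L-CD, 6 to 7 for DEN T-WD versus nonDEN L-WD, 1 to 3 for nonDEN L-WD versus nonDEN L-CD and 0 to 2 for the interaction. Among values called in either fit, the 16 whose direction turned did so on the TPM scale, relative to a median shift of all genes of up to 0.31: in DEN PT-WD versus DEN L-CD *Pcyt1a* 0.32, *Cept1* 0.26, *Ptdss1* 0.22 and *Pisd* 0.29; in DEN T-WD versus nonDEN L-WD *Cept1* 0.10, *Ptdss2* 0.42 and *Pisd* 0.35; in DEN T-WD versus nonDEN L-CD *Chkb* 0.042, *Pcyt1a* 0.27 and *Cept1* 0.28; in DEN T-WD versus DEN L-CD *Chkb* 0.0068, *Pcyt1a* 0.058 and *Cept1* 0.19; in DEN PT-WD versus nonDEN L-CD *Cept1* 0.35, *Pemt* 0.27 and *Ptdss1* 0.31. The cause was not tested. From expected counts in place of TPM the shares were, in the order DEN T-WD, DEN PT-WD, nonDEN L-WD, DEN L-CD, nonDEN L-CD, 67.2, 40.0, 33.6, 35.2 and 50.1% for *Chka*, 70.2, 81.9, 83.0, 82.0 and 76.9% for *Chpt1*, and 78.6, 84.3, 83.8, 85.7 and 87.3% for *Ptdss1*, since counts are not divided by transcript length. Whether replicate numbers pair tumor and peritumoral tissue of 1 animal is not known. Correlations between libraries of 1 number were −0.23 to 0.34, and they cannot decide it. With the replicate block 7 genes were called between these tissues, *Cept1* (−0.24) being added. The block also brought in *Chka* in DEN L-CD versus nonDEN L-CD (−1.06, its call at 2-fold), *Chpt1* in nonDEN L-WD versus nonDEN L-CD (0.62), and *Pemt* in DEN PT-WD versus nonDEN L-WD (−0.33) and in the interaction (−0.56). It lost *Lpcat3* in nonDEN L-WD versus nonDEN L-CD (0.54), *Chkb* (−0.39) and *Ptdss2* (0.29) in DEN T-WD versus nonDEN L-CD, *Ptdss2* in DEN PT-WD versus nonDEN L-CD (0.24) and *Pisd* in the interaction (−0.32). The acinar covariate changed no count of calls. Of 2844 alternative values of single genes 94 had the other sign, those 16 included.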
